A study of Mus musculus with 16 samples.

Results

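B cells lacking both endosomal receptors for nucleic acids, TLR7 and TLR9, were followed into the late phase of their response to the autoantibody PL2-3. The late response was read from 3 of the 16 arrays of the series, those of the TLR7 TLR9 KO genotype (the double knockout) at 0, 24 and 42 h, as the 2 late arrays against the single 0 h array. All cells were splenic B cells of AM14 mice, and the genotypes are wild type (WT), Tlr7-/- (TLR7 KO), Tlr9-/- (TLR9 KO) and Tlr7/9-/- (TLR7 TLR9 KO), each cultured with PL2-3 for 0, 6, 24 or 42 h and each read on 1 array per time. On every array the sample was labelled with Cy5 and set against one Cy3-labelled pool, made from RNA of resting B cells of the 4 genotypes, so that a value is the log2 ratio of sample to pool and a change is the difference of 2 such ratios. The age, sex and number of the mice, the purification of the B cells, the dose of PL2-3 and any pooling of mice were not stated in the labels. Every cultured sample had received PL2-3, so what the antibody did and what time in culture did cannot be told apart.

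AM14 B cells carry a transgenic antigen receptor that binds IgG. PL2-3 is a monoclonal IgG antibody that recognises chromatin, so that in culture it brings nucleic acid released by dying cells to the antigen receptor, and from there into the endosome. TLR7 senses RNA there and TLR9 senses DNA. In cells that lack both, the antigen receptor is still engaged while these receptors are missing.

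The 3 double knockout arrays had between 47.2 and 51.5% of spots well above background in Cy5, within the 37.4 to 62.7% of all 16. WT and TLR7 KO shared 1 slide and TLR9 KO and the double knockout the other. Changes within the double knockout therefore lie within 1 slide, whereas TLR9 status and slide cannot be told apart. A probe of Tlr7 read -0.58 at 0 h, 0.36 at 24 h and 0.41 at 42 h on the double knockout arrays, against 0.95 for WT at 0 h, and its signal was higher late although the gene is targeted. The Tlr9 probe read -0.06 at 0 h, -0.31 at 24 h and -0.44 at 42 h and did not separate the genotypes at 0 h (-0.08 in WT). Where these probes lie relative to the deleted parts is not given, so they check the labels only in part. Ddx3y, a Y-linked gene, read between -3.36 and -2.98 on the 4 double knockout arrays and between 0.95 and 1.58 on the 4 TLR9 KO arrays, which keeps these genotypes distinct and means that sex and TLR9 KO cannot be told apart. The double knockout 0 h array was at least 2-fold from the mean of the other 0 h arrays in 28 of 13581 genes, of which 24 were among the late calls, 11 of them higher and 13 lower. Tyrobp, Orai2 and Zdhhc4, described with their values, are among them. Across 12174 genes the ratios to the pool of the double knockout 24 h array were most like those of the TLR9 KO array labelled 42 h (Pearson r = 0.946), with 0.825 for TLR9 KO at 24 h, 0.845 for TLR7 KO at 24 h and 0.838 for WT at 24 h. The double knockout 42 h array had r = 0.917 with TLR9 KO at 42 h and 0.90 with TLR9 KO at 24 h. All arrays share the pool, the double knockout and TLR9 KO share a slide, and the genes are not independent. The response sizes at 24 h and the late response test are also given without TLR9 KO.

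Late double knockout cells still changed a large set of genes. Of 13616 genes with a probe above background on at least 2 of the 3 arrays, 596 were at least 2-fold higher than at 0 h on both late arrays (4.38%) and 683 were at least 2-fold lower on both (5.02%). With a single array per time these counts have no replicate check. To set the change against a spread, the 2 late arrays were compared with the 0 h arrays of all 4 genotypes with limma, at a Benjamini-Hochberg adjusted p of 0.05, where the 4 genotypes stand in for replicates of unstimulated cells. In that comparison 3040 of 13397 genes were higher late (22.7%) and 3457 were lower (25.8%). The 24 and 42 h arrays are treated there as replicates of a single late state. Of the genes 2-fold higher on both late arrays 552 of 596 passed it in the same direction, as did 671 of the 683 lower genes. The comparison reuses the 3 arrays that chose these genes, so this overlap is no independent check. The same holds for the limma p-values of genes named for their large late change. "Rose" and "fell" are used of the genes that passed it. Centring the arrays on their median in place of loess shifted the median change of all genes to 0.12 at 24 h and 0.23 at 42 h, from -0.02 at both times, and raised the share of higher genes among the late calls from 46.6 to 71.1%. In the limma comparison that share went from 46.8 to 59.2%.

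The 12 largest late rises were led by Egr2, Ahr, Cst7 and Pdcd1. Egr2, a transcription factor induced through the antigen receptor, read 0.22 at 0 h, 5.91 at 24 h and 5.39 at 42 h. Both late arrays stood far above the 0 h array, and the rise over the 0 h arrays was 5.64 ± 0.17 (SE), adjusted p = 3.31e-06 in limma. Ahr, the ligand-activated aryl hydrocarbon receptor, read -0.01 at 0 h, 4.76 at 24 h and 4.78 at 42 h, a rise of 4.72 ± 0.09 (SE), adjusted p = 7.22e-07. No probe of Ahr was well above background in Cy5 at 0 h, so its change is not given as a fold. The other Ahr probe showed a mean late change of only 0.28. Cst7, which encodes the protease inhibitor cystatin F, read 0.07 at 0 h, 4.74 at 24 h and 5.73 at 42 h (rise 5.20 ± 0.24, limma). Pdcd1, which encodes the inhibitory receptor PD-1, read 0.09 at 0 h, 4.68 at 24 h and 5.22 at 42 h and rose in limma (adjusted p = 3.61e-06). For each of these genes the late arrays exceeded each of the 4 arrays at 0 h. The other rises were Tacc2 (microtubule-associated), Mreg (melanoregulin), Mt1 (metallothionein), Slco4a1 (organic anion transport), Pdgfa (growth factor), Lilrb4a (inhibitory receptor), Tubb6 (tubulin) and Gfi1 (transcriptional repressor), and all 8 rose in limma, by between 3.66 in Lilrb4a and 5.12 in Pdgfa. Pdgfa had the widest distance between the late arrays among the 12 genes, at 3.79 at 24 h and 6.17 at 42 h.

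The 12 largest late falls were led by Jun, Tyrobp, Fos and Wfdc21. Jun read -0.03 at 0 h, -5.84 at 24 h and -5.58 at 42 h and fell by 5.60 ± 0.11 (SE), adjusted p = 7.22e-07 in limma. Fos read 0.01 at 0 h, -4.19 at 24 h and -4.51 at 42 h and fell by 4.44 ± 0.14 (SE), adjusted p = 3.58e-06 (limma). Both encode subunits of AP-1, and both late arrays lay far below every 0 h array. Tsc22d3, which encodes the glucocorticoid-induced leucine zipper, read -0.07 at 0 h, -3.73 at 24 h and -4.79 at 42 h, and both late arrays were far below 0 h (-4.12 ± 0.27 in limma). Tyrobp, the adaptor DAP12 of myeloid and natural killer cells, read 2.71 at 0 h, -2.83 at 24 h and -3.17 at 42 h. Its 0 h value stood far above those of WT (-0.04), TLR7 KO (-0.31) and TLR9 KO (-0.08), so that the change from the double knockout's own 0 h array (-5.53 and -5.88) was larger than the difference from all 0 h arrays (-3.57 ± 0.79 (SE), adjusted p = 0.00799). The other falls were Wfdc21 (a secreted whey acidic protein family member), Cacna1i (a T-type calcium channel), H1f2 (a linker histone), Spns2 (a sphingosine 1-phosphate transporter), Pde2a (a phosphodiesterase), Vpreb3 (of the surrogate light chain family), Vcam1 (an adhesion molecule) and Myl4 (a myosin light chain). All 8 fell in limma, by differences between -3.88 in Myl4 and -4.70 in Wfdc21. Second probes of Cacna1i and Vcam1 gave mean late changes of only -0.75 and -0.64.

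**Figure D1:**
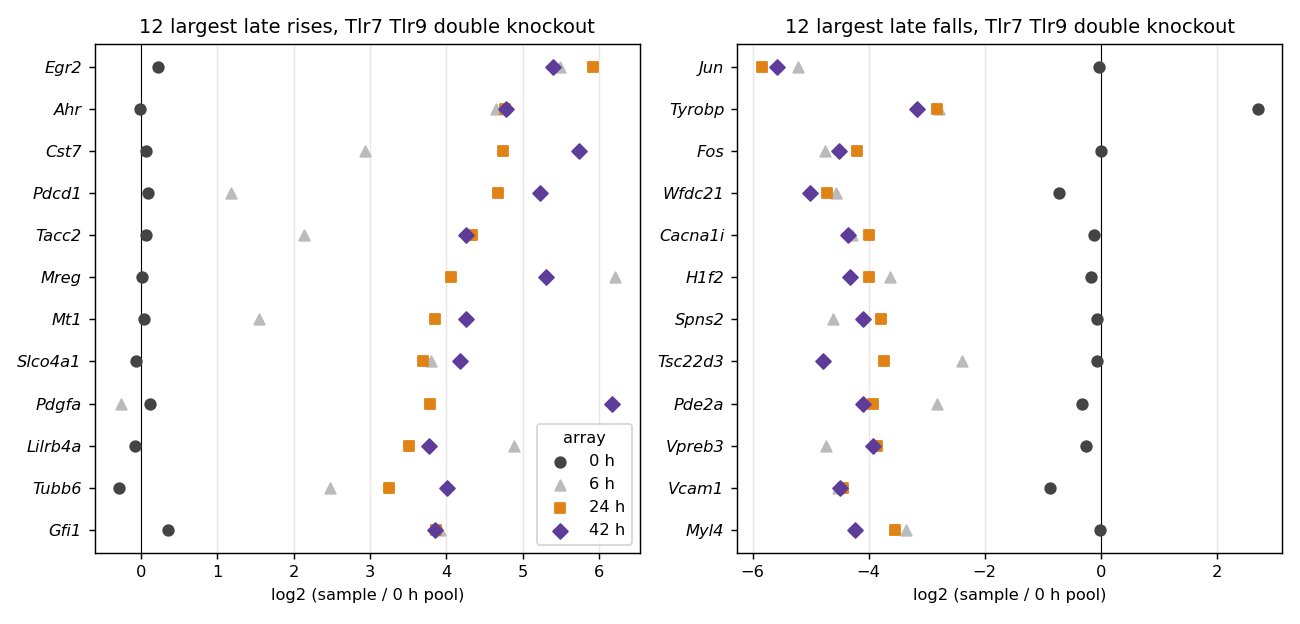
Log2 ratio of sample to the 0 h pool (x axis) for the 12 largest late rises (left) and falls (right), 1 point per double knockout array at 0, 6, 24 and 42 h. For 11 of the 12 falls and all 12 rises the 0 h point lies within 1 log2 unit of the pool, and the 24 and 42 h points lie at least 3.50 log2 units from it in the direction of the change, the smallest being that of Gfi1.

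List counts are to be read beside the shares of all genes. These were 4.38% higher and 5.02% lower on both late arrays, and 22.7% higher and 25.8% lower in limma. The lists and their members were chosen with earlier results of these data known. A list share above that of all genes is therefore no independent check. Antigen receptor immediate early genes did not move as a group. Of 18 members considered, 4 were 2-fold higher on both late arrays (Egr1, Egr2, Nr4a1 and Nr4a2) and 5 were lower (Fos, Fosb, Jun, Dusp1 and Dusp6), with a median change of -0.06 at 24 h and -0.20 at 42 h against -0.02 at both times for all genes. With median centring these medians turned to 0.20 and 0.42. Nr4a2, an orphan nuclear receptor, read -0.14 at 0 h, 3.09 at 24 h and 3.16 at 42 h and rose by 3.19 ± 0.09 (SE), adjusted p = 3.12e-06 in limma. Egr1, a zinc finger transcription factor, read 0.23 at 0 h, 2.76 at 24 h and 2.48 at 42 h and rose by 2.44 ± 0.11 (SE), adjusted p = 1.45e-05. Both genes stayed high from 24 to 42 h. Among antigen receptor inhibitory genes, 2 of 14 were higher on both late arrays and 4 lower. Cd5, a negative regulator of antigen receptor signalling, read -0.08 at 0 h, 1.41 at 24 h and 1.65 at 42 h and rose by 1.49 ± 0.12 (SE), adjusted p = 8.79e-05. Siglecg, an inhibitory lectin of B cells, read 0.11 at 0 h, -1.95 at 24 h and -1.79 at 42 h and fell by 1.82 ± 0.17 (SE), adjusted p = 0.000196.

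Cytokine genes went in both directions, 3 of 11 higher on both late arrays and 3 lower. Csf1, which encodes macrophage colony-stimulating factor, read 0.23 at 0 h, 3.20 at 24 h and 3.31 at 42 h and rose by 3.25 ± 0.13 (SE), adjusted p = 8.09e-06 (limma). The chemokine genes Ccl3 and Ccl4 rose by 3.04 ± 0.40 and 3.25 ± 0.37. Ccl5, Ltb and Lta fell. Ltb and Lta, the lymphotoxin genes, read 0.60 at 0 h, -2.69 at 24 h and -3.36 at 42 h and 0.17 at 0 h, -2.43 at 24 h and -3.27 at 42 h, respectively. Of 18 NF-κB targets and regulators 2 were higher late on both arrays (Traf1, a signalling adaptor, and Nfkbie, an inhibitor) and 2 lower (Bcl3 and Cd40), and of 20 activation and costimulation genes 4 were higher and 4 lower. Il2ra, the interleukin-2 receptor alpha chain, read -0.06 at 0 h, 2.66 at 24 h and 2.89 at 42 h. It rose by 3.00 ± 0.28 (SE), adjusted p = 0.000199 (limma), and its 0 h signal was not well above background. Icosl, the ligand of ICOS, read -0.0012 at 0 h, -2.76 at 24 h and -4.68 at 42 h, with a second probe at a mean late change of -0.54.

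Genes of growth stayed raised. Among MYC targets and ribosome biogenesis genes 12 of 22 were 2-fold higher on both late arrays (4.38% of all genes) and none lower. In limma 18 of 22 rose, against 22.7% of all genes. Their median change was 1.07 at 24 h and 1.12 at 42 h. Myc itself, a growth transcription factor, read -0.03 at 0 h, 2.38 at 24 h and 3.00 at 42 h and rose by 2.86 ± 0.19 (SE), adjusted p = 5.25e-05. Ncl, which encodes nucleolin, read -1.16 at 0 h, 1.11 at 24 h and 1.42 at 42 h, and rose by 2.04 ± 0.20 (SE), adjusted p = 0.000224 against the 0 h arrays of all genotypes. Its own 0 h array was the lowest of the 4. Odc1, the first enzyme of polyamine synthesis, rose by 1.70 ± 0.12 (limma). In the amino acid response list 5 of 15 were higher on both late arrays and 1 lower. Asns, asparagine synthetase, read -0.01 at 0 h, 2.58 at 24 h and 2.60 at 42 h and rose by 2.52 ± 0.12 (SE), adjusted p = 1.53e-05.

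Sterol and fatty acid synthesis was the list with the highest median at 24 h, 1.35, followed by 1.45 at 42 h. Of its 20 members 12 were higher on both late arrays and 1 lower, and 17 rose in limma, against 22.7% of all genes. Scd2, a stearoyl-CoA desaturase, read -0.08 at 0 h, 2.04 at 24 h and 3.18 at 42 h. Idi1, of the isoprenoid branch, read 0.03 at 0 h, 2.44 at 24 h and 2.42 at 42 h and rose by 2.52 ± 0.11 (SE), adjusted p = 1.25e-05. Sqle, squalene epoxidase, rose by 2.09 ± 0.11. Hmgcs1, HMG-CoA synthase, read 0.15 at 0 h, 1.52 at 24 h and 1.89 at 42 h and rose by 1.65 ± 0.14 (SE), adjusted p = 0.000114. Of 17 genes of glycolysis and glucose uptake 3 were higher on both late arrays (Hk2, Pfkp and Gapdh), with medians of 0.37 and 0.76. In limma 10 rose and 3 fell, against 22.7 and 25.8% of all genes. Hk2, hexokinase, read 0.16 at 0 h, 1.93 at 24 h and 2.21 at 42 h and rose by 2.04 ± 0.12 (SE), adjusted p = 3.82e-05. With median centring 9 of the 17 were higher, with medians of 1.01 and 1.41. Of 17 respiratory chain genes 8 rose in limma (22.7% of all genes did) and none was 2-fold changed on both late arrays, or 4 with median centring.

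Cell cycle genes set 42 h apart from 24 h. From 24 to 42 h 273 of 13616 genes were at least 2-fold higher (2%) and 20 were at least 2-fold lower (0.147%), again with 1 array per time. Of 22 mitosis and cytokinesis genes 21 were at least 2-fold higher at 42 h than at 24 h, and of 24 DNA replication genes 8 were. The median change from 0 h went from 0.54 to 2.78 for mitosis and from 0.96 to 1.80 for DNA replication. At 24 h 3 of 22 mitosis genes stood 2-fold above 0 h, and at 42 h 21 did. The number higher on both late arrays, 3 here, was 9 with the processed signals and 6 with no background subtraction, and the medians were then 0.83 and 3.56, and 0.60 and 3.03. DNA replication came earlier, with 12 of 24 above 0 h at 24 h and 23 at 42 h. No mitosis or replication gene was 2-fold lower at either time.

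The named examples show the order. Mki67, the proliferation marker Ki-67, read -0.08 at 0 h, 0.59 at 24 h and 3.41 at 42 h, after -1.80 at 6 h. Ube2c, of the anaphase-promoting complex pathway, read -0.30 at 0 h, -0.08 at 24 h and 3.06 at 42 h, and Birc5, survivin, read 0.13 at 0 h, 1.20 at 24 h and 3.90 at 42 h. Each of these genes was within about 2-fold of its 0 h level at 24 h and several fold above it at 42 h. Ccna2, cyclin A2, read 0.06 at 0 h, 1.05 at 24 h and 3.71 at 42 h and rose by 2.30 ± 0.61 (SE), adjusted p = 0.0171 in limma, whose SE includes the distance between the late arrays. Uhrf1, which maintains DNA methylation at replication forks, read 0.35 at 0 h, 2.66 at 24 h and 4.13 at 42 h, and Rrm2, a subunit of ribonucleotide reductase, read -0.02 at 0 h, 1.51 at 24 h and 3.60 at 42 h. Mcm6, of the replicative helicase, read 0.0037 at 0 h, 2.04 at 24 h and 3.06 at 42 h and rose by 2.60 ± 0.25 (SE), adjusted p = 0.000199. These replication genes were already raised at 24 h. Outside the lists, Lpl (lipoprotein lipase) read 0.31 at 24 h and 3.25 at 42 h, and Siglecf (a sialic acid-binding receptor) 1.94 and 4.87. The steepest falls between these times were of Icosl and Bcl6. Bcl6, a repressor needed by germinal centre B cells, read 0.06 at 0 h, -2.25 at 24 h and -3.90 at 42 h and fell by 3.14 ± 0.39 (SE), adjusted p = 0.00058 against the 0 h arrays. Trib2, a pseudokinase, and Serpinb1a, a protease inhibitor, followed.

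**Figure D2:**
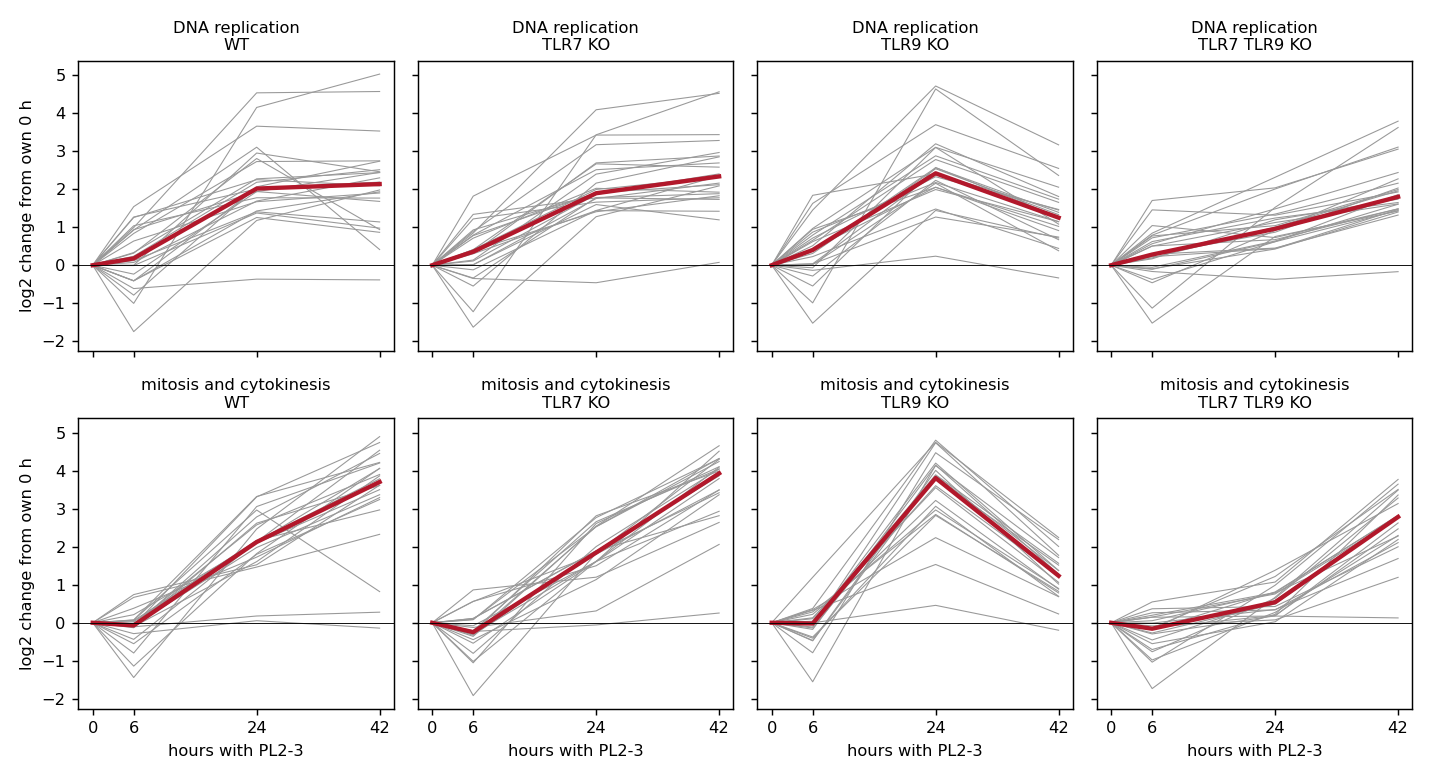
Log2 change from each genotype's own 0 h array (y axis) against hours with PL2-3 (x axis) for DNA replication genes (top, 24) and mitosis genes (bottom, 22), 1 grey line per gene and the median in red, 1 array per point. In the double knockout the mitosis median is 0.54 at 24 h and 2.78 at 42 h, whereas in TLR9 KO it is 3.80 on the array labelled 24 h and 1.23 on that labelled 42 h.

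By the labelled times, the order of the late values differed among genotypes. The double knockout 24 h array had r = 0.946 with the TLR9 KO array labelled 42 h and 0.825 with that labelled 24 h. Whether the late TLR9 KO arrays carry the right times was not tested. The mitosis median went from 2.12 to 3.70 in WT and from 1.84 to 3.93 in TLR7 KO between 24 and 42 h, and in TLR9 KO it went from 3.80 down to 1.23. The double knockout therefore had the lowest mitosis median at 24 h, and at 42 h it lay between TLR9 KO and the other genotypes. The test of the difference in the 24 to 42 h step between the double knockout and the others, with limma, had no call in either direction (0% higher and 0% lower of 15059 genes), with 1749 genes at an unadjusted p below 0.05.

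To show what promoters of lists with raised members hold, RefSeq promoters (build GRCm38.p6) were searched on both strands over the 250 bases before the start. A match is a description of letters only. The CCAAT box (CCAAT) was in 17 of 19 mitosis genes matched by symbol, or 90% of their 20 promoters, against 33.8% of all 32851, and the CHR element (TTTGAA or TTCGAA) in 45% against 17.1%. An E2F-type site (TTTCGCGC or TTTGGCGC) was in 16.7% of 24 promoters of DNA replication genes against 0.654% of all. The sterol regulatory element core (CACCCCAC or CACGCCAC) was in 12.5% of 16 promoters of the sterol list against 3.12%, and the metal response element core (TGCACNC or TGCGCNC) in 50% of 8 promoters of the metallothionein and zinc list against 21.4%. The MYC E-box (CACGTG) was in 0 of 16 promoters of the MYC target list and in 6.02% of all. For each list but that of MYC targets 1 promoter is shown, as the 200 bases before the start on the strand of the gene. It is that of the most raised member with the motif, or both motifs for mitosis, within those bases. Genes on 1 chromosome were left out of that choice. The motifs of the list are in capitals. The places are chr2:118598011-118598210 (+) for Bub1b, chr17:56304113-56304312 (+) for Uhrf1, chr13:119690151-119690350 (+) for Hmgcs1 and chr8:94178889-94179088 (+) for Mt1.
Bub1b: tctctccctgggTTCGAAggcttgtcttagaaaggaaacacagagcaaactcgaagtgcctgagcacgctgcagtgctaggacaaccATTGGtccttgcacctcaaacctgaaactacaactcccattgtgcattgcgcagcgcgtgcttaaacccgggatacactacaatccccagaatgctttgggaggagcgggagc
Uhrf1: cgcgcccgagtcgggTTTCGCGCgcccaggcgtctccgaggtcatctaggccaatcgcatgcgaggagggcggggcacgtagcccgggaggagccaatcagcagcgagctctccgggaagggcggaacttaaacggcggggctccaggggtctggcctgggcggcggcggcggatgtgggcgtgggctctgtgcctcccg
Hmgcs1: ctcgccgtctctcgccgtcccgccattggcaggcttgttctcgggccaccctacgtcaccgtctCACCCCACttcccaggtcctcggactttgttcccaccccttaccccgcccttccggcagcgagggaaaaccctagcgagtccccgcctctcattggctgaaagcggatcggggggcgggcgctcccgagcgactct
Mt1: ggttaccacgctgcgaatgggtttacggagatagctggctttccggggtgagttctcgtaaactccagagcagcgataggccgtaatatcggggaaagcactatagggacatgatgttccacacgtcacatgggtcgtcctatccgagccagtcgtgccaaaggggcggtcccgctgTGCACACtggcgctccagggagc
Bub1b, a mitotic checkpoint kinase, carries 1 CCAAT box (as its complement) and 1 CHR element in the bases shown. It read -0.16 at 0 h, 1.06 at 24 h and 3.35 at 42 h, with most of its rise after 24 h. In the bases shown Uhrf1 carries 1 E2F-type site, and Hmgcs1 carries 1 sterol element core.

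The metallothionein genes Mt1 and Mt2 were among the raised genes. Mt1, which encodes a metal-binding protein, carries 1 metal response element core in the 200 bases shown above. It read 0.04 at 0 h, 3.85 at 24 h and 4.26 at 42 h and rose by 3.93 ± 0.24 (SE), adjusted p = 3.81e-05 (limma). Mt2 read 0.39 at 0 h, 2.65 at 24 h and 3.51 at 42 h and rose by 2.91 ± 0.23 (SE), adjusted p = 9.84e-05. A second Mt1 probe gave a mean late change of 0.81. None of the 6 others (Mt3, the metal-sensing factor Mtf1 and zinc transporters) was 2-fold changed on both late arrays, and Mt3, Slc30a4 and Slc39a10 fell in limma. The list median was -0.09 at 24 h, or 0.02 with median centring, and -0.19 at 42 h.

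Genes of the mature B cell were lower late. Of 24 mature B cell identity genes 13 were 2-fold lower on both late arrays (5.02% of all genes) and none higher, with medians of -1.20 and -1.39. In limma 21 fell, against 25.8% of all genes. With median centring 9 were lower. Cr2, complement receptor 2, read 0.04 at 0 h, -3.00 at 24 h and -4.02 at 42 h and fell by 3.51 ± 0.26 (SE), adjusted p = 7.46e-05. Cxcr5, the follicle homing receptor, read 0.03 at 0 h, -1.88 at 24 h and -2.46 at 42 h and fell by 2.06 ± 0.17 (SE), adjusted p = 0.000105. Cd79a and Cd79b, which signal for the antigen receptor, had limma differences of -1.98 ± 0.14 and -1.93 ± 0.14 (SE). Both fell late. In these bulk samples fewer cells of a type and less RNA per cell cannot be told apart.

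Most quiescence and homing genes were also lower, with 13 of 25 lower on both late arrays, none higher, and medians of -1.12 and -1.58. With median centring 12 were lower and 1 higher. In limma 19 fell and 2 rose, against 25.8 and 22.7% of all genes. Klf2, a quiescence factor, read -0.73 at 0 h, -3.47 at 24 h and -4.35 at 42 h and fell by 3.69 ± 0.34 (SE), adjusted p = 0.000169 in limma. S1pr1, the egress receptor, read -0.10 at 0 h, -2.94 at 24 h and -3.43 at 42 h, and Itgb7, an integrin of gut homing, read -0.21 at 0 h, -3.02 at 24 h and -3.60 at 42 h. Of the 8 GIMAP GTPases of lymphocyte survival 5 were lower on both late arrays, or 2 with median centring and 3 with the processed signals, and 8 at 42 h. Gimap7 read 0.26 at 0 h, -1.77 at 24 h and -2.85 at 42 h. Among 13 genes of MHC class II and antigen loading 4 were lower on both late arrays, with medians of -0.57 and -0.92. In limma 9 fell, against 25.8% of all genes. With median centring 1 was lower, with medians of -0.14 and -0.25. H2-Ob, a chain of the loading regulator, read -0.08 at 0 h, -1.74 at 24 h and -2.23 at 42 h, and Cd74, the invariant chain, read 0.53 at 0 h, -0.62 at 24 h and -0.80 at 42 h.

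**Figure D3:**
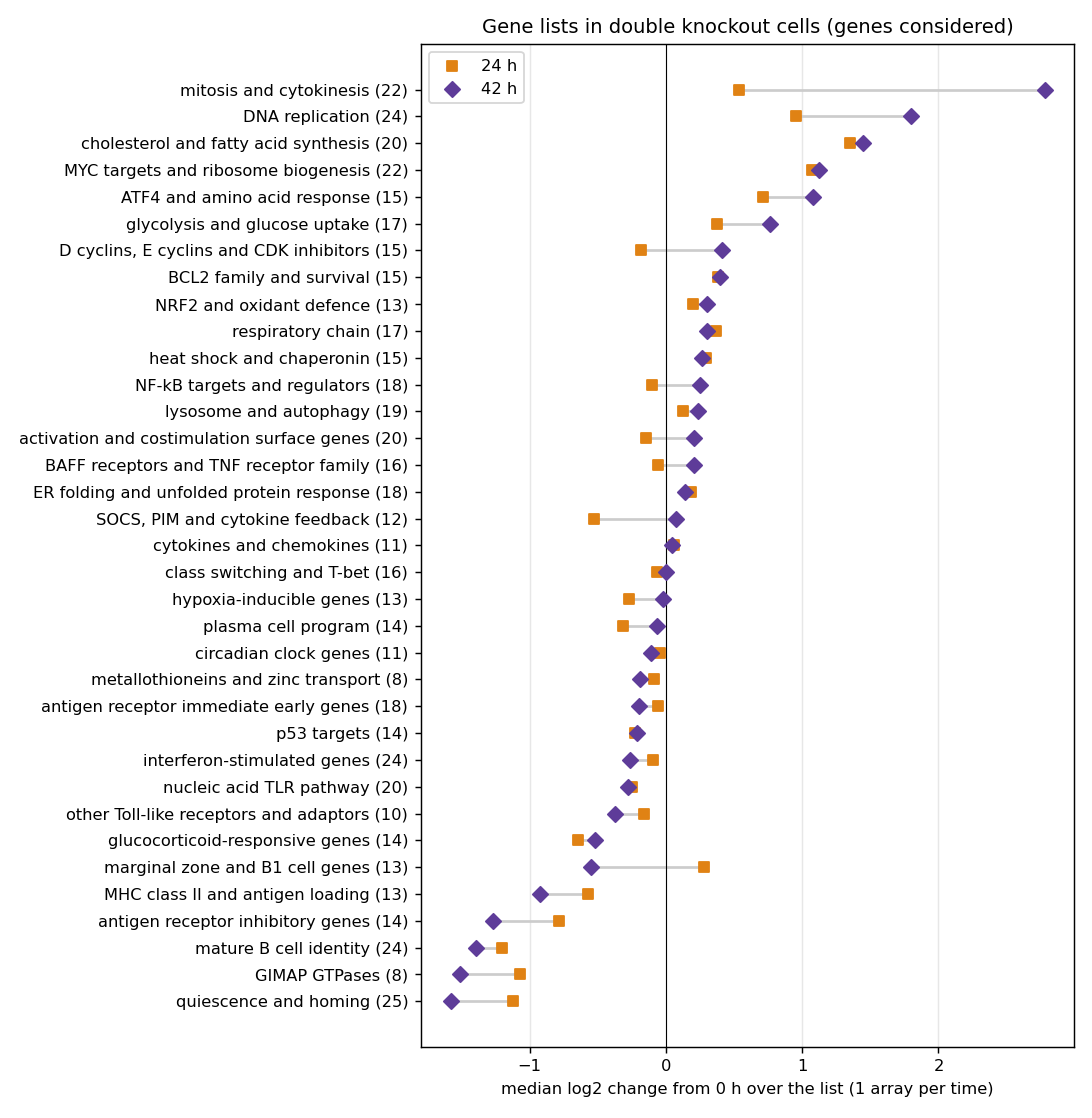
Median log2 change from the double knockout 0 h array (x axis) over each of 35 gene lists (number of genes considered in brackets) at 24 h (squares) and 42 h (diamonds), 1 array per time. Mitosis lies highest at 42 h with 2.78 and quiescence and homing lowest with -1.58, while the median of all genes is -0.02 at both times.

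Interferon-stimulated and Toll-like receptor genes were more often 2-fold lower than higher on both late arrays, though by few genes in each list. Of all genes 4.38% were higher and 5.02% lower. Of 24 interferon-stimulated genes 1 was higher on both late arrays (Ifih1, an RNA sensor) and 4 were lower (Gbp2, Rsad2, Ifit3 and Oas2), or 3 with median centring. Their medians were -0.09 and -0.26. In limma 6 of 25 tested rose and 7 fell, near the 22.7 and 25.8% of all genes. Ifih1 read 0.21 at 0 h, 1.25 at 24 h and 1.96 at 42 h and rose by 1.48 ± 0.20 (SE), adjusted p = 0.000864 in limma. Rsad2, viperin, read -0.51 at 0 h, -2.25 at 24 h and -1.85 at 42 h and fell by 2.06 ± 0.28 (SE), adjusted p = 0.000835. In the pathway of the nucleic acid TLRs 2 of 20 genes considered were lower on both late arrays and none higher. These were Irak3, an inhibitory kinase of the pathway, which read 0.02 at 0 h, -1.39 at 24 h and -1.67 at 42 h, and Irak2, a related kinase, which read 0.76 at 0 h, -0.59 at 24 h and -0.89 at 42 h. In both the 0 h array was the highest of the 3. The other receptors were Tlr13, at -0.24 at 0 h, -0.53 at 24 h and -0.89 at 42 h, and Tlr8, at -0.03 at 0 h, 0.16 at 24 h and 0.33 at 42 h. Of the chaperones and adaptors, Unc93b1, which carries the receptors to the endosome, read -0.46 at 0 h, -0.72 at 24 h and -0.31 at 42 h. Myd88, the shared adaptor, read 0.15 at 0 h, 0.58 at 24 h and 0.41 at 42 h, and Tirap, a sorting adaptor, read -0.08 at 0 h, -0.12 at 24 h and -0.09 at 42 h. Myd88 was slightly higher on both late arrays and Tirap was level. Irak1 and Irak4, the activating kinases, had limma differences of -0.04 ± 0.15 (SE), adjusted p = 0.838 and -0.06 ± 0.15 (SE), adjusted p = 0.776. Traf6 and Traf3, ubiquitin ligases of the pathway, had differences of -0.51 ± 0.10 and -0.91 ± 0.10 and both fell, and Slc15a4, a transporter needed for endosomal TLR signalling, fell by 1.44 ± 0.22 (SE), adjusted p = 0.00145. Of the transcription factors, Irf5, Irf7 and Irf8 differed by -0.11, -0.51 and 0.01, with adjusted p of 0.491, 0.0505 and 0.958. Cnpy3, a chaperone, fell by 0.36 ± 0.11, and of the endosomal proteases Lgmn fell by 0.64 ± 0.13 and Ctsb differed by 0.47 ± 0.24 (SE), adjusted p = 0.139. In limma 1 of 19 pathway genes tested rose (Myd88) and 9 fell, against 22.7 and 25.8% of all genes. The list medians were -0.25 and -0.28 and turned to 0.03 and 0.10 with median centring, where 1 gene was higher and 1 lower on both late arrays. Of 10 other Toll-like receptors and adaptors considered 0 were higher and 2 lower on both late arrays, or 1 and 2 with median centring. In limma 3 of 10 tested rose and 6 fell, against 22.7 and 25.8% of all genes. Among the other Toll-like receptors, Tlr1 read -0.07 at 0 h, -2.38 at 24 h and -2.47 at 42 h and fell by 2.31 ± 0.09 (SE), adjusted p = 7.46e-06, and Tlr6 read -0.26 at 0 h, -1.70 at 24 h and -1.80 at 42 h.

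Plasma cell genes were mixed, with 2 of 14 higher on both late arrays and 3 lower, or 1 lower with median centring. Irf4, a factor of plasma cell formation, read 0.13 at 0 h, 1.44 at 24 h and 1.30 at 42 h, and Slamf7, a surface receptor of plasma cells, read -0.27 at 0 h, 1.65 at 24 h and 1.99 at 42 h. Both rose in limma, while Jchain, the joining chain of polymeric antibody, read -0.54 at 0 h, -2.86 at 24 h and -3.14 at 42 h. Cell cycle entry and other lists were also mixed. Among cyclins, CDKs and their inhibitors 4 of 15 were higher on both late arrays, namely Ccnd2, Ccne1, Cdk4 and E2f1, which drive entry into the cell cycle, and 4 were lower (Ccnd1, Cdkn1b, Cdkn2d and E2f2), or 2 with median centring. Ccnd2, cyclin D2, read 0.22 at 0 h, 1.46 at 24 h and 1.48 at 42 h. Of 13 marginal zone and B1 cell genes 5 were higher (Ahr, Cd5, Cd9, Spn and Zbtb32) and 5 lower (Cr2, Cd1d1, Dtx1, Mzb1 and Notch2). Zbtb32, a zinc finger repressor, read -0.08 at 0 h, 2.61 at 24 h and 2.61 at 42 h and rose by 2.72 ± 0.17 (SE), adjusted p = 3.98e-05 (limma). In the BCL2 family 4 of 15 were higher on both late arrays, among them the prosurvival gene Bcl2a1d (0.19 at 0 h, 2.23 at 24 h and 2.66 at 42 h) and the death genes Bbc3 (-0.19 at 0 h, 0.91 at 24 h and 1.88 at 42 h) and Bcl2l11 (0.25 at 0 h, 1.48 at 24 h and 1.66 at 42 h).

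Markers of other cells moved with time and were measured beside these results. Over 10 B cell markers the summed Cy5 signal at 24 and 42 h was 49.9 and 46.1% of that at 0 h, all 10 were above background throughout, and 8 were 2-fold lower on both late arrays, or 4 with median centring. Of 18 myeloid markers on the array 16 were above background at 0 h, 14 at 24 h and 13 at 42 h, and 10 of the 16 considered were lower on both late arrays. The summed signal of the 16 considered was 55.5 and 72.3% of 0 h, and Csf1r, the receptor of Csf1, read -0.39 at 0 h, -3.27 at 24 h and -3.07 at 42 h. Erythroid and platelet markers had a summed signal of 26.3 and 17.3% of 0 h, with 6 of 14 considered lower (10 with the processed signals). Of 15 on the array 10, 11 and 9 were above background at 0, 24 and 42 h, and Hbb-bs, a beta globin, read -1.18 at 0 h, -3.58 at 24 h and -4.55 at 42 h. For natural killer and plasmacytoid markers the summed signal was 80.8 and 81.9%. Of 13 considered 1 was higher and 2 were lower (1 and 7 with the processed signals). Of 14 on the array 12, 8 and 9 were above background, and Gzma, a granzyme, read -0.86 at 0 h, -4.24 at 24 h and -4.50 at 42 h. Of 12 T cell markers considered 1 was higher and 2 were lower on both late arrays. Their summed signal was 111 and 78.3% (12, 10 and 10 of 13 on the array above background). It was 63.7 and 61.8% for dendritic cell markers (6, 6 and 5 of 9) and 63.8 and 59.5% for stromal and endothelial markers (8, 7 and 6 of 11). Markers of other cells were thus present on all 3 arrays, and their part in the results was not tested.

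The 24 h response of the double knockout was smaller than that of every other genotype in most responding genes. Of 1142 genes at least 2-fold higher at 24 h in all of WT, TLR7 KO and TLR9 KO, the double knockout changed less than each of the others in 1030, or 90.2%. The same held for 1135 of 1248 genes that were lower in all 3, or 90.9%. The median change over these genes was 0.84 and -0.97 in the double knockout against 1.66 and -1.66 for the mean of the others. Choosing genes by 3 genotypes favours those 3. The same count with another genotype left aside was between 4.98 and 16.1% for WT, TLR7 KO and TLR9 KO. Those counts set each genotype against the double knockout too, over genes 2-fold changed in it. They therefore do not measure how far the choice of genes raised the shares of the double knockout. Against the TLR9 KO array labelled 24 h alone, which was on the same slide, the double knockout changed less in 93.3 and 94.8% of them. Without TLR9 KO, of 1395 genes higher and 1500 lower in both WT and TLR7 KO the double knockout changed less than either in 1298 and 1401, or 93 and 93.4%. At 42 h the shares were 37.6 and 43%, against 29.6 and 47.6% for WT, 63.2 and 30.3% for TLR9 KO and 11.8 and 16.1% for TLR7 KO. Each time rests on 1 double knockout array, and the genes are not independent, so no p is given. Over all genes considered the SD of the change at 24 h was 0.67 in the double knockout and between 0.99 and 1.04 in the others, and at 42 h it was 0.82 against 0.80 to 0.91.

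Few single genes passed the test of this difference. The response of the double knockout less that of the other genotypes was fitted with limma over 12 arrays (4 residual degrees of freedom). At 24 h 2 genes responded more in the double knockout (0.0133% of 15076) and 2 less (0.0133%), with 2289 genes at an unadjusted p below 0.05. The 2 lower were Tnf, the inflammatory cytokine, and Uck2, a kinase of pyrimidine salvage. Tnf changed by -0.52 at 24 h in the double knockout, by 2.12 in WT, 1.92 in TLR7 KO and 2.07 in TLR9 KO, a response difference of -2.56 ± 0.20 (SE, adjusted p = 0.0372, limma). Uck2 changed by 2.46 in the double knockout against 4.32, 4.37 and 4.42, a difference of -1.91 ± 0.17 (adjusted p = 0.0409, limma). Both genes stood apart from every other genotype at 24 h, and neither passed at 42 h, where the differences were -0.67 for Tnf and -0.49 for Uck2 (adjusted p 0.813 and 0.86).

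Averaged over both late times, 2 genes responded more in the double knockout (0.0133% of 15059) and 0 less (0%), with 1600 at an unadjusted p below 0.05, and at 42 h alone there were 0 in either direction (0% and 0%), with 856 at an unadjusted p below 0.05. The 2 were Orai2, a subunit of store-operated calcium channels, and Zdhhc4, a palmitoyltransferase, which also made up the 2 higher calls at 24 h. Orai2 read -3.04 at 0 h, -1.06 at 24 h and -0.73 at 42 h in the double knockout, and the other 0 h arrays read -0.14, 0.12 and 0.09. Zdhhc4 read -1.85 at 0 h, 0.31 at 24 h and 0.21 at 42 h, and the other 0 h arrays 0.02, 0.03 and -0.00093. In both genes the double knockout 0 h array stands apart, and against all 0 h arrays together the late arrays did not differ past the threshold (Orai2 -0.15 ± 0.85 (SE), adjusted p = 0.898, Zdhhc4 0.71 ± 0.52 (SE), adjusted p = 0.297, limma). A second Orai2 probe had a mean late change of 0.17.

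The number of calls in these fits depends on which genotypes are in them. Without the 3 TLR9 KO arrays the late response of the double knockout differed from that of WT and TLR7 KO in 1616 genes. Of 15059 genes tested, 889 were higher and 727 lower. That fit has fewer residual degrees of freedom than the fit of all genotypes. Its residual spread comes only from how far the responses of WT and TLR7 KO differ from each other. The larger count is therefore not a measure of a stronger difference. Without WT, without TLR7 KO or without the WT 42 h array there were 0 calls. WT and TLR7 KO share a slide that the double knockout does not. The genotype term takes out a constant offset between slides. A change over time that differs by slide cannot be told apart from one that differs by genotype in the fit without TLR9 KO.

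Some late genes, chosen here after their values were seen, had other values in other genotypes. Egr2 changed by 1.53 in WT and 2.08 in TLR7 KO at 42 h, against 5.17 in the double knockout and 5.84 in TLR9 KO. Cst7 at 42 h changed by 1.23, 1.28 and 4.91 in WT, TLR7 KO and TLR9 KO and by 5.66 in the double knockout. Wfdc21 changed by 1.13 and 2.48 in WT, -0.0037 and 1.18 in TLR7 KO and -4.00 and -4.30 in the double knockout, with TLR9 KO at -2.98 and -4.43. In these genes the genotypes on the double knockout's slide lay together and WT and TLR7 KO lay together. In Lta and Cd5 the double knockout lay apart from all other genotypes at 24 h. Lta changed by -2.60 in the double knockout and by -0.10, -0.13 and 0.03 in WT, TLR7 KO and TLR9 KO, a late response difference of -2.53 ± 0.54 (adjusted p = 0.306, limma). Cd5 changed by 1.49 against -0.39, -0.17 and -0.61, with a late difference of 1.72 ± 0.44 (adjusted p = 0.335, limma). These differences did not pass the threshold.

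**Figure D4:**
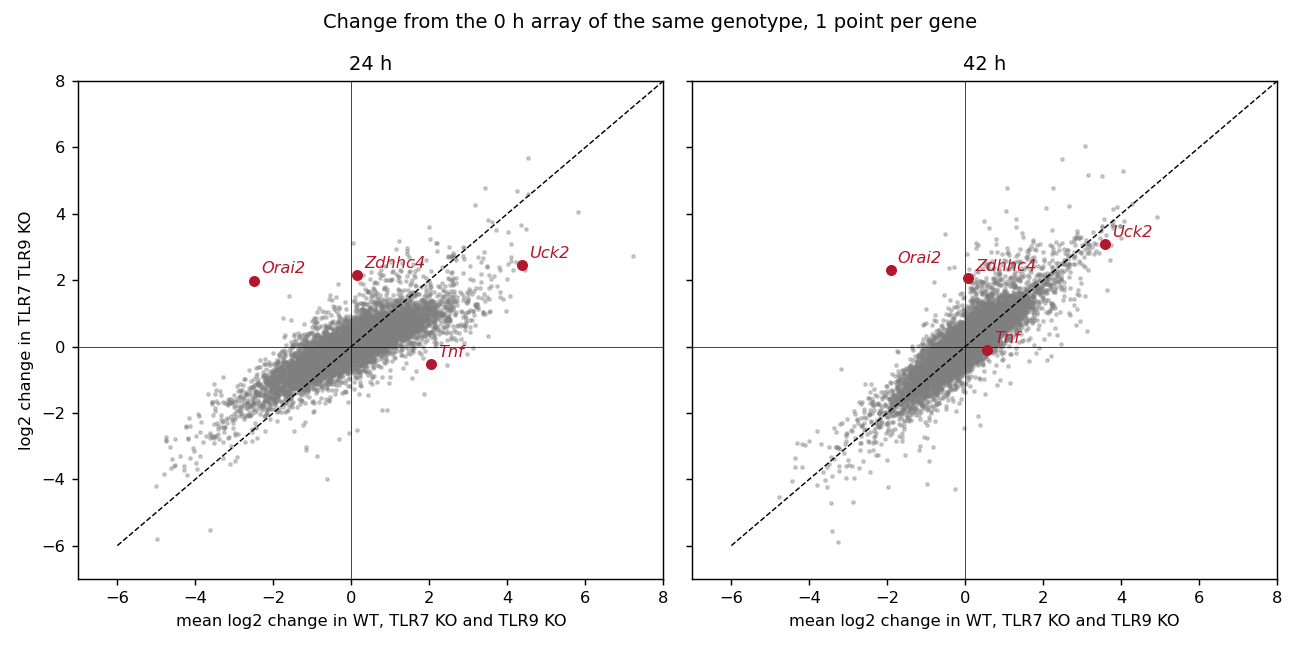
Log2 change from 0 h in the double knockout (y axis) against the mean change in WT, TLR7 KO and TLR9 KO (x axis) at 24 h (left) and 42 h (right), 1 point per gene, with equality as a dashed line and the 4 genes that passed the 24 h response test in red. At 24 h the cloud is flatter than the line, with Tnf at -0.52 in the double knockout and Orai2 and Zdhhc4 above it, and at 42 h it lies closer to the line.

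A large share of the late calls was common to the genotypes. Of the 596 genes higher on both late arrays of the double knockout, 54.2% were so in WT, 61.4% in TLR7 KO, 74% in TLR9 KO and 46.8% in all 3. These shared genes made up 37.9% of the genes higher on both late arrays in WT, 37.8% in TLR7 KO and 49.6% in TLR9 KO. Of the 683 lower genes the shares were 63.4, 76.7, 85.1 and 58.6%, and they made up 47.6, 44.8 and 53.4% of the lower genes of WT, TLR7 KO and TLR9 KO. The WT 42 h array read within 0.5 log2 units of its 0 h array in 14 of 185 genes whose mean change in the other genotypes was at least 2.5, Jun among them (0.01 in WT against -5.55 in the double knockout). At 42 h this count was 1 of 195 for the double knockout, 1 of 161 for TLR7 KO and 5 of 225 for TLR9 KO. At 24 h it was 14 of 377 for the double knockout and 0 for each other genotype. Shares with WT count the genes within 0.5 log2 units on its 42 h array as unchanged.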

How the data were processed

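Splenic B cells of 4 genotypes were read at 4 times on 16 two-colour Agilent arrays (62976 spots, 3671 of them controls). Per the file headers, the authors deposited Feature Extraction 10.1.1.1 output on the mm9 design. It holds linear spot intensity for Cy5 (sample) and Cy3 (pool), and the deposited log10 ratio of Cy5 over Cy3 was computed from the processed signals. No dye swap was made.

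Mean and background intensities were corrected with limma 3.58.1 (normexp, offset 50), normalized by loess within each array to log2 ratios of the deposited channels and averaged over spots of a probe. Of 55681 probes, 27235 were named by RefSeq accession, 3581 by symbol and 565 by an older symbol, and 24300 had no symbol. A gene (22328 in all) is read from its brightest probe. It was considered if, on 2 or more of the 3 arrays, that probe passed the scanner's above-background flag in Cy5 or Cy3, and tests needed 3 arrays. A change counts at 2-fold, and limma calls at a Benjamini-Hochberg adjusted p of 0.05. p-values measure the spread between these arrays, each of 1 genotype and time.

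Named genes were the largest changes past 2-fold on both late arrays, the largest steps, the genes past the response tests, and up to 5 members, with any needed to account for the list, of 35 gene lists and 7 marker lists. The members and lists were chosen with earlier results of these data known. The response size, its count without TLR9 KO and the leaving out of the WT 42 h array were chosen after seeing the data. The fits were tested on simulated data. Alternatives were the processed signals, median centring, no background subtraction, other filters, the mean over probes, a fold of log2 1.5, other limma settings and leaving out arrays. Some genes are not reported here.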

Additional observations from a re-analysis of the deposited data

Results flagged for a closer look

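The late response of Orai2, a subunit of calcium release channels, was larger in the double knockout than in the other genotypes by 4.36 on the log2 scale (SE 0.31, adjusted p = 0.0261, limma). That of Zdhhc4, a palmitoyltransferase, was larger by 2.01 (SE 0.15, adjusted p = 0.0261, limma). Both were marked because a test of the difference between genotypes passed the threshold. In both the double knockout 0 h array is the one that stands apart, and each value rests on that single array.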

How the results depend on the processing

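The late counts of 596 higher and 683 lower genes became 1172 and 1192 with the processed signals, 1104 and 448 with median centring and 206 and 276 at a fold of log2 1.5. From single late arrays they were 665 to 1131 higher and 761 to 967 lower. From 24 to 42 h the counts of 273 and 20 became 654 and 267 with the processed signals and 104 and 2 at log2 1.5, and median centring gave 11 lower. Against the 0 h arrays median centring gave 2218 lower, and leaving out an array gave 2177 to 3055 higher and 2461 to 3516 lower. The late response test had 1 call with median centring, with probes above background in both colours on all arrays and with the mean over probes, 4 with all 16 arrays, and 0 to 1616 leaving out a genotype or the WT 42 h array. At 24 h it had 1 call with the processed signals, 0 with median centring and 0 to 2049 leaving out arrays. At 42 h it had 1 with the processed signals, median centring or a robust trend, 3 with no background subtraction and 0 to 1038 leaving out arrays, and the 24 to 42 h step had 0 to 1335. Of the genes 2-fold at 24 h in the other genotypes, the double knockout changed less in 2022 higher and 338 lower genes with median centring, or 91.8 and 73.3% of them, and in 79.8 and 85.3% with the processed signals. Without TLR9 KO these counts were 1298 and 1401. The causes were not tested. All 24 largest late changes kept their sign with the processed signals, median centring, no background subtraction and the mean over probes. The other filters on dim probes leave these values as they are. The genes were picked for the size of their change, so a turn of sign was unlikely. The slide as a block gave 2691 higher and 3000 lower genes against the 0 h arrays. No paired analysis was possible because the groups compared share only the replicate number 1.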
